A study of Mus musculus with 13 samples.

Results

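The genes examined here are 33 genes of mesangial and contractile cells, chosen by name with earlier results of these data known. All 33 were present among the 35967 gene symbols with deposited expression values. They comprise the thin filament and its regulators (9 genes), myosin and its kinase (4), actin crosslinkers and adaptors (5), intermediate filaments (2), receptors and surface antigens (5), renin lineage genes (2), regulators of G protein signalling (2), secreted proteins (2) and transcription factors (2). Their levels were compared in kidney glomeruli of wildtype Balb/c mice that received 2 mg of rabbit IgG into the peritoneum. Control mice received preimmune rabbit IgG (n = 5), and mice with membranous nephropathy (MN) received anti-THSD7A IgG and were examined at day 1 (n = 4) or day 5 (n = 4). THSD7A is a podocyte membrane protein and an autoantigen of human MN, so the model rests on passive transfer of a foreign antibody and not on an immune response of the mouse to its own protein. The authors combined control mice of days 1 and 5 into 1 group, and which control was taken on which day is not given in the sources used here. According to the study's methods only male mice entered the MN model. Each library is 1 numbered replicate of its group, and p-values measure the spread between these libraries.

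Mesangial cells hold the capillary loops of the glomerulus together. They are contractile cells related to pericytes and vascular smooth muscle, and signalling from endothelial PDGF-B to their receptor PDGFR-beta is needed for their development. When mesangial cells are injured they can take on a myofibroblast-like state with more smooth muscle actin and related proteins. Isolated glomeruli also carry stretches of the arterioles, with smooth muscle cells and renin-producing juxtaglomerular cells. Several of these genes, among them *Vim*, *Tpm1*, *Myl9*, *Myl6*, *Flna* and *Tagln2*, are in addition expressed by podocytes or endothelial cells, so whole glomeruli do not tell which cell a transcript comes from.

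Many smooth muscle genes carry in their promoters a CArG box, the 10-base sequence bound by serum response factor (SRF), which consists of CC, then 6 bases that are each A or T, then GG. The boxes are shown as a sequence feature that was not itself read to choose the genes. As the list holds many smooth muscle genes, the share with a box is not independent of that choice. RefSeq promoters (250 bases before to 50 bases after the start of transcription, table build GRCm38.p6) were found for 28 of the 33 genes, 30 promoters in all, and each of the 30 matched the GRCm39 genome exactly in 1 place. *Tagln*, *Actg2*, *Myh11*, *Pdgfrb* and *Thy1* had no entry. The motif reads the same on both strands, so each box was counted once. An exact box was present in 3 of the 30 promoters (10%), against 1.63% of all 32851 promoters in the table. Allowing 1 G or C within the 6 central bases, a box was present in 6 of 30 (20%), against 9.98% of all promoters. The 3 exact boxes lay in *Cnn2*, *Myl6* and *Myl9*, and *Acta2*, *Ren1* and *Tbx18* carried boxes with 1 such base. The windows are read in the direction of transcription in GRCm39 coordinates, with the box in capitals and the first base of the box 161 and 99 (Myl9), 56 (Cnn2), 50 (Myl6), 84 and 34 (Acta2) bases before the RefSeq start. The second *Myl9* box also holds 1 G. The GENCODE annotation of GRCm39 has transcripts of *Myl9*, *Myl6* and *Acta2* that start further upstream, so their windows lie within the annotated gene, while the *Cnn2* window lies before it.
Myl9, chr2:156617213-156617242, plus strand: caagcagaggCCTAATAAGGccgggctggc
Myl9, chr2:156617275-156617304, plus strand: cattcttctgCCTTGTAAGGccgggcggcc
Cnn2, chr10:79824368-79824397, plus strand: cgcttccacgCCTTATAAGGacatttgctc
Myl6, chr10:128328909-128328938, minus strand: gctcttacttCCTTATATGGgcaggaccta
Acta2, chr19:34232838-34232867, minus strand: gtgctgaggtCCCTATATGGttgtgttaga
Acta2, chr19:34232788-34232817, minus strand: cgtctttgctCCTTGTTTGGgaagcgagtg

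Of the 5 genes called below, *Myl9*, *Tpm1*, *Tpm2* and *Vim* had a promoter entry, and *Tpm1*, *Tpm2* and *Vim* had no box of either kind in this window. Of the 24 other genes with an entry, 5 had a box of either kind, among them *Tbx18*, which was too low to be tested. A match describes letters in a window of this length and not a site in use.

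Expression values are TPM (transcript abundances), which are scaled for transcript length and to a fixed total per library, so levels can be compared between genes, and the read depth is unknown. Listed TPM summed to 989774 to 996064 per library. For the tests, TPM were divided by a scaling factor per library (0.955 to 1.04), 0.5 was added, and log2 was taken. Fold changes are on this log2(scaled TPM + 0.5) scale, which understates the change of genes with low TPM. Tests used limma with Benjamini-Hochberg adjustment over the 14322 genes that reached 1 TPM in 4 or more libraries, and a gene was called when its adjusted p was under 0.05 and its absolute log2 fold change was above 0.5. Of the 33 genes 31 passed this filter, and *Actg2* and *Tbx18* did not. The summed TPM of 9 podocyte markers was 6843 to 9234 per library, and that of 8 glomerular endothelial markers was 4821 to 6105.

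Control replicate 5 stood apart within its group. It had the lowest level of the 5 control libraries in 27 of the 31 tested genes, and the lowest of all 13 libraries in 24 of them. Its summed TPM of 8 proximal tubule markers was 684, against 269 to 406 in the other control libraries, while its sum of markers of the loop, distal tubule and collecting duct (510) was within their range (265 to 534). It was also the lowest control in the summed TPM of glomerular endothelial markers (4825, against 5325 to 6099), of interstitial fibroblast markers (542, against 636 to 724) and of other mesangial and pericyte genes (2811, against 3287 to 3692). Its summed TPM of podocyte markers (9192) was within the range of the other control libraries (6843 to 9234). The part of these in the low levels was not tested. The main counts, and the day 5 values that moved most with this library, are given with and without it.

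**Figure D1:**
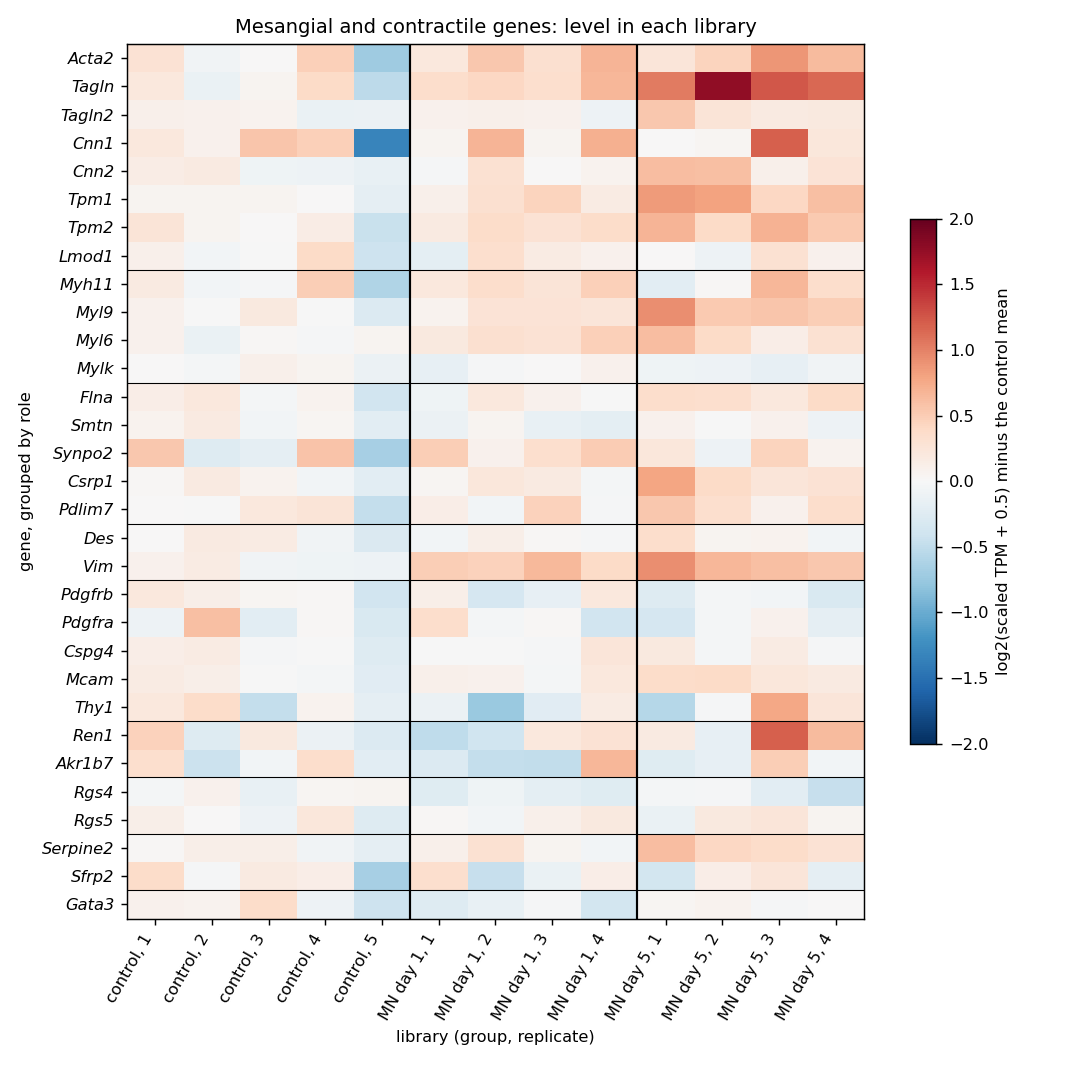
Level of the 31 tested genes (rows, grouped by role) in each of the 13 libraries (columns, named by group and replicate), as log2(scaled TPM + 0.5) minus the mean of the control libraries, with red above and blue below that mean. The column of control replicate 5 is mostly blue, being lowest of all libraries in 24 genes, and the *Tagln* and *Vim* rows are red across the day 5 columns.

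The first comparison asks which of these genes differed between MN at day 5, the later of the times examined, and control IgG. *Tagln*, *Vim*, *Tpm1*, *Myl9* and *Tpm2* were higher at day 5, by 2.46-fold for *Tagln* and by 1.48-fold to 1.61-fold for the others. None of the 31 was called lower. The 5 genes called higher were 5 of 31, where 2.42% of all tested genes were called higher and 3.21% in either direction. Because the genes were chosen with earlier results of these data known, the shares in this paragraph are descriptive and not independent of that choice. Ranges of the 4 day 5 libraries lay wholly above those of the 5 controls in 9 of the 31 genes, against 5.07% of all genes. The log2 fold change was above 0 in 26 of the 31 (83.9%), with a median of 0.28, where 49.3% of all tested genes were above 0 with a median of -0.0032. In whole glomeruli a change in the number of cells of a type and a change in RNA per cell cannot be told apart.

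Without control replicate 5 the median over the 31 genes was 0.06, 21 were above 0, and 4 were called, namely *Tagln*, *Vim*, *Tpm1* and *Myl9*. The log2 fold change of *Tpm2* was then 0.46 (adjusted p = 0.00514), under the fold threshold. The 5 genes that passed from above to below 0 were *Lmod1* (-0.04), *Smtn* (-0.04), *Synpo2* (-0.0042), *Akr1b7* (-0.04) and *Gata3* (-0.08). Without that library *Myh11* was at 0.06, *Thy1* at 0.06, *Des* at 0.04, *Rgs5* at 0.02 and *Cspg4* at 0.01, while *Pdlim7* was at 0.21, *Pdgfra* at -0.19 and *Sfrp2* at -0.21. Without day 5 replicate 3 the median was 0.12 and 22 were above 0, with 5 called.

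**Figure D2:**
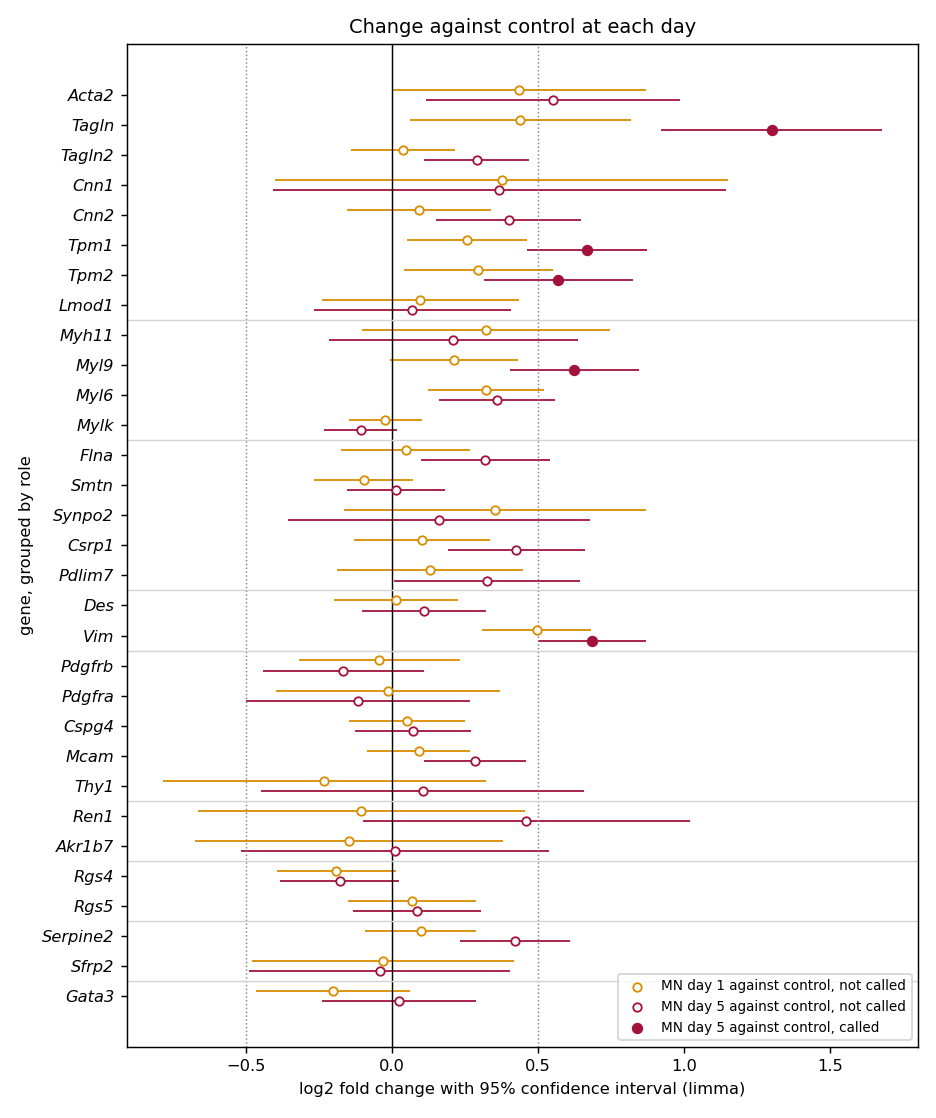
Log2 fold change against control with its 95% confidence interval from limma (x axis) for each tested gene (y axis, grouped by role), at day 1 in orange and at day 5 in red. Filled points are called, dotted lines mark the fold threshold of 0.5, and the day 5 interval of *Tagln* (0.92 to 1.68) lies apart from those of the other thin filament genes except *Acta2* and *Cnn1*.

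Among the thin filament genes, *Tagln* encodes transgelin (SM22), an actin-binding protein of smooth muscle and of activated mesangial cells, and lies at chr9:45840909-45847404 on the minus strand of GRCm39. *Tagln* was at 159, 126, 142, 178 and 91.1 TPM in the control libraries, at 168, 172, 170 and 208 at day 1, and at 262, 447, 327 and 299 at day 5. Every day 5 library was above every control and every day 1 library, while day 1 and control overlapped. The log2 fold change at day 5 was 1.30 (SE 0.18, adjusted p = 0.000639), and leaving out each library in turn gave 1.14 to 1.40, called each time. Exons of an antisense long noncoding RNA, *Gm48529*, cover 60.7% of the *Tagln* exon bases in the annotation. Since strand-specific counting is not stated, it is unknown whether reads from the shared bases were told apart. *Gm48529* has no value among the listed symbols. *Tagln2*, a relative of broader expression, was at 413 to 501 TPM in controls and at 633, 529, 533 and 524 at day 5. Its ranges did not overlap, but its log2 fold change of 0.29 did not pass the test (SE 0.083, adjusted p = 0.0579).

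*Tpm1* and *Tpm2* encode tropomyosins, which lie along actin filaments and govern the access of myosin. *Tpm1* (chr9:66929870-66956953, minus strand) was at 360, 368, 358, 350 and 294 TPM in controls, at 356, 410, 466 and 374 at day 1, and at 583, 579, 469 and 519 at day 5. The day 5 libraries were all above the others, by little at the closest point (day 5 replicate 3 against day 1 replicate 3). Its log2 fold change at day 5 was 0.67 (SE 0.096, adjusted p = 0.000938). *Tpm2* (chr4:43514697-43524949, minus strand) was at 165, 146, 139, 153 and 96.8 TPM in controls, at 150, 170, 166 and 171 at day 1, and at 206, 173, 228 and 196 at day 5. Its day 5 range lay above the other groups by a small margin, with a log2 fold change of 0.57 (SE 0.12, adjusted p = 0.0112). As stated above, the *Tpm2* call rested on control replicate 5.

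*Acta2*, which encodes smooth muscle alpha-actin and is the usual marker of myofibroblast-like mesangial cells, did not pass the test. It was at 225, 179, 184, 257 and 108 TPM in controls, at 205, 252, 225 and 283 at day 1, and at 204, 239, 344 and 280 at day 5. The groups overlapped, and day 5 replicate 1 was lower than 2 of the controls. Its log2 fold change at day 5 was 0.55 (SE 0.20, adjusted p = 0.14), with an interval of 0.12 to 0.99 that holds changes as large as those of *Tpm1* or *Tpm2*. Without control replicate 5 it was 0.37 (adjusted p = 0.206).

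The calponins regulate actomyosin. *Cnn1*, which is largely confined to smooth muscle, was at 12.8, 11.9, 16.3, 15.6 and 3.90 TPM in controls and at 10.3, 10.8, 26.2 and 12.8 at day 5. The groups overlapped, with the lowest value in control replicate 5 and the highest in day 5 replicate 3. Its log2 fold change of 0.37 (adjusted p = 0.645) was 0.04 without control replicate 5 and 0.09 without day 5 replicate 3. Exons of *Elof1*, a protein-coding gene on the opposite strand, cover 35.1% of the *Cnn1* exon bases. *Elof1* was at 78.8 to 94.8 TPM over the libraries, so the limit on strand given for *Tagln* holds for *Cnn1* too. *Cnn2*, of broader expression, was at 142, 149, 121, 121 and 111 TPM in controls and at 185, 186, 141 and 153 at day 5, with replicate 3 alone within the control range. Its log2 fold change was 0.40 (SE 0.11, adjusted p = 0.0592), and without that library it was 0.50 (adjusted p = 0.021), still under the fold threshold. *Lmod1*, an actin nucleator of smooth muscle, was at 4.96 to 9.43 TPM in controls and 6.23 to 9.01 at day 5 (log2 fold change 0.07, adjusted p = 0.862). *Actg2*, the gamma-actin of enteric smooth muscle, was under 1 TPM in every library and was listed at 0 in 4 of the 5 controls.

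**Figure D3:**
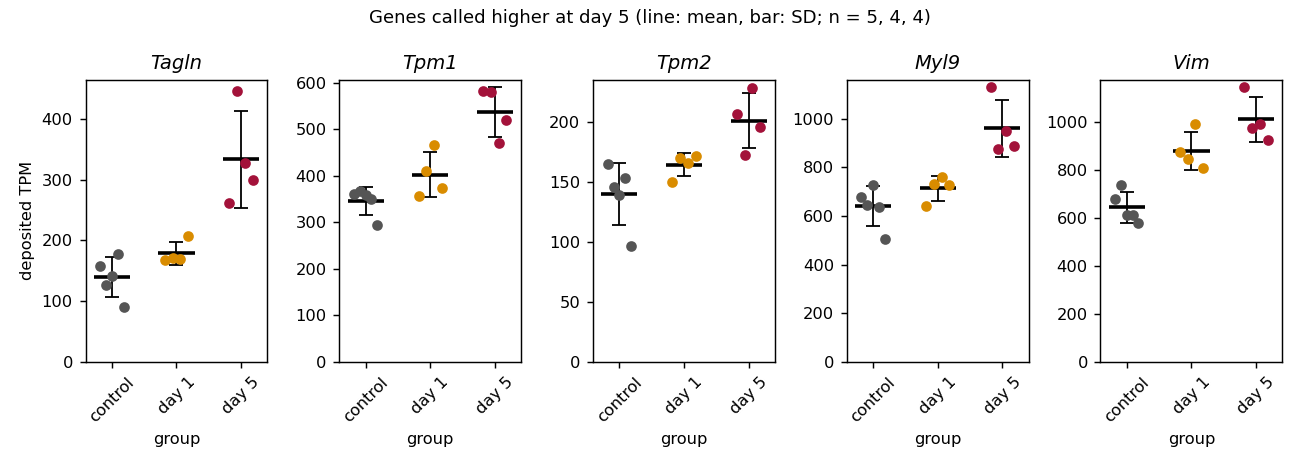
Deposited TPM (y axis, from 0) of the 5 genes called higher at day 5, 1 point per library, for control (n = 5), MN day 1 (n = 4) and MN day 5 (n = 4), with the mean as a line and the SD as a bar. All day 5 points lie above all control points in each panel, and the *Vim* day 1 points (810 to 992 TPM) also lie above all controls.

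Of the myosin genes, *Myl9* encodes the regulatory light chain whose phosphorylation starts contraction in smooth muscle and other contractile cells (chr2:156617084-156623579, plus strand). It was at 678, 645, 728, 637 and 506 TPM in controls, at 641, 730, 758 and 725 at day 1, and at 1129, 875, 949 and 888 at day 5. The 4 day 5 libraries were above all others, with replicate 1 the highest, while day 1 and control overlapped. Against control it differed at day 5 by a log2 fold change of 0.62 (SE 0.10, adjusted p = 0.00228), and 0.56 without control replicate 5 (adjusted p = 0.0042).

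*Myl6*, the essential light chain shared by smooth muscle and nonmuscle myosin, had the highest level of the 33 genes. Its mean was 3232 TPM ± 153 (SD, n = 5) in controls, 3920 ± 312 (n = 4) at day 1 and 4063 ± 420 (n = 4) at day 5, and neither MN group overlapped with the controls. At day 5 its log2 fold change was 0.36 (SE 0.092, adjusted p = 0.0337), which is below the fold threshold. Processed pseudogenes such as *Gm8894* match its transcript at 97% identity over 38.3% of its length, so the share of reads given to *Myl6* is uncertain. *Myh11*, the smooth muscle myosin heavy chain, was at 39.0 to 86.9 TPM in controls and at 49.9, 59.9, 100.2 and 77.8 at day 5. The groups overlapped, with the highest value again in replicate 3 (log2 fold change 0.21, SE 0.20, adjusted p = 0.624). *Mylk*, the kinase that phosphorylates the *Myl9* product, was at 401 to 486 TPM in controls and at 401 to 425 at day 5, with a log2 fold change of -0.11 (SE 0.058, adjusted p = 0.337).

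None of the 5 actin crosslinkers and adaptors was called at day 5. All 5 had log2 fold changes above 0 (median 0.32), and 3 of 5 without control replicate 5 (median 0.21). *Csrp1*, a LIM protein bound to zyxin and alpha-actinin, was at 400.5, 454, 415, 381 and 328 TPM in controls and at 638, 493, 476 and 475 at day 5. All day 5 values were above all controls, and the log2 fold change of 0.43 had an adjusted p of 0.0335 (SE 0.11) but was under the fold threshold. Without control replicate 5 its adjusted p was 0.0743. *Flna*, the filamin that crosslinks actin, was at 238 to 382 TPM in controls and at 383, 386, 380 and 415 at day 5, where replicate 3 was below 1 control (log2 fold change 0.32, SE 0.10, adjusted p = 0.0888). *Pdlim7*, which links kinases to actin filaments, was at 42.7 to 74.3 TPM in controls and 66.9 to 84.5 at day 5 (log2 fold change 0.33, adjusted p = 0.239). *Smtn*, which encodes smoothelin, and *Synpo2*, which encodes myopodin, had log2 fold changes of 0.01 (adjusted p = 0.955) and 0.16 (adjusted p = 0.784).

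Among the intermediate filament genes, *Vim* encodes vimentin, which mesangial cells share with podocytes and endothelial cells (chr2:13578738-13587639, plus strand). It was at 681, 739, 614, 611 and 577 TPM in controls, at 874, 844, 992 and 810 at day 1, and at 1148, 977, 992 and 927 at day 5. All 8 MN libraries were above all 5 controls. At day 5 its log2 fold change was 0.69 (SE 0.086, adjusted p = 0.000355), and leaving out each library in turn gave 0.60 to 0.73. *Des*, which encodes desmin, a muscle filament protein present in mesangial cells and in injured podocytes, was at 240, 272, 266, 227 and 186 TPM in controls and at 283, 235, 254 and 226 at day 5. The groups overlapped, with a log2 fold change of 0.11 (SE 0.098, 95% confidence interval -0.10 to 0.32, adjusted p = 0.603).

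None of the 5 receptors and surface antigens was called at day 5. *Pdgfrb*, the receptor on mesangial cells and pericytes, was at 313, 296, 275, 275 and 198 TPM in controls, at 280, 203, 236 and 300.3 at day 1, and at 209, 248, 265 and 214 at day 5. The groups overlapped, and the log2 fold change at day 5 was -0.17 (SE 0.13, 95% confidence interval -0.44 to 0.11, adjusted p = 0.528). Its mean was 234 TPM ± 26.8 (SD, n = 4) at day 5 and 271 ± 43.8 (n = 5) in controls, the latter including the low value of control replicate 5, and without that library the log2 fold change was -0.26 (adjusted p = 0.221). *Pdgfra*, a receptor of fibroblasts and some mesangial cells, had a log2 fold change of -0.12 (adjusted p = 0.79), and *Cspg4*, the NG2 proteoglycan of pericytes, one of 0.07 (adjusted p = 0.737). *Mcam*, a surface adhesion molecule (CD146) of mural and endothelial cells, was at 219, 215, 194, 191 and 159 TPM in controls and at 235, 242, 233 and 218 at day 5. Only day 5 replicate 4 was below any control, and the log2 fold change of 0.28 did not pass the test (SE 0.081, adjusted p = 0.0581). *Thy1*, a surface glycoprotein of fibroblasts and other cells, was at 7.43 to 13.9 TPM in controls and 6.47 to 18.8 at day 5 (log2 fold change 0.11, adjusted p = 0.874).

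*Ren1*, which encodes renin and marks juxtaglomerular cells of the arteriole, was at 327, 204, 273, 221 and 189 TPM in controls, at 161, 171, 272 and 282 at day 1, and at 254, 203, 557 and 364 at day 5. The groups overlapped, and day 5 replicate 3 was the highest of the 13 libraries. The log2 fold change at day 5 was 0.46 (SE 0.26, 95% confidence interval -0.10 to 1.02, adjusted p = 0.357), and 0.22 (adjusted p = 0.684) without day 5 replicate 3. *Akr1b7*, an aldo-keto reductase of renin cells, was at 20.9 to 35.8 TPM in controls and 21.9 to 39.9 at day 5, with a log2 fold change of 0.01 (SE 0.24, adjusted p = 0.99).

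**Figure D4:**
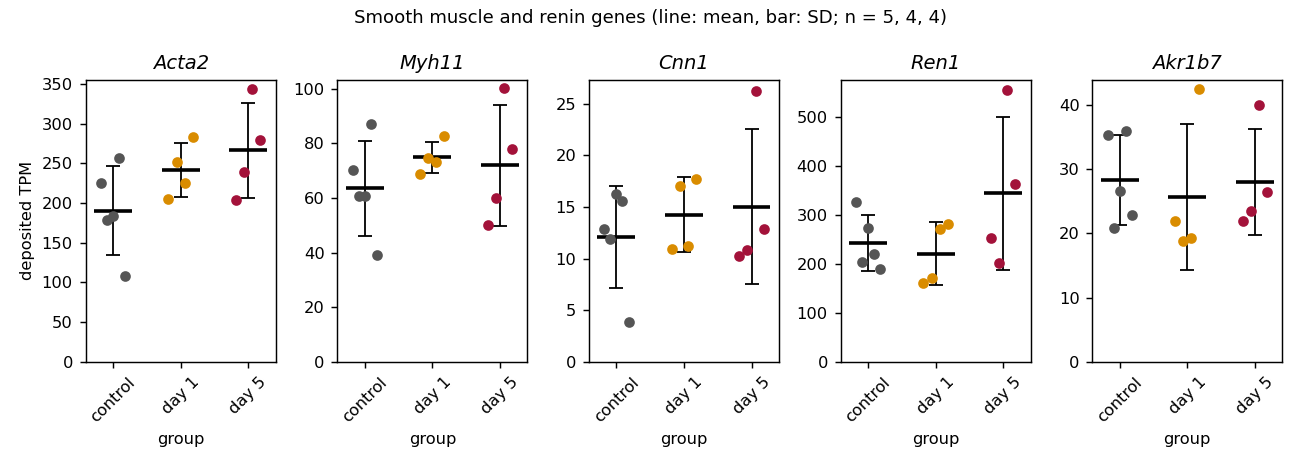
Deposited TPM (y axis, from 0) of *Acta2*, *Myh11*, *Cnn1*, *Ren1* and *Akr1b7*, genes of smooth muscle and renin cells, 1 point per library, for control (n = 5), MN day 1 (n = 4) and MN day 5 (n = 4), with the mean as a line and the SD as a bar. The groups overlap in every panel, and 1 day 5 library, replicate 3, is the highest of its group in each (557 TPM for *Ren1*).

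The remaining genes divide between signalling, secretion and transcription. *Serpine2*, which encodes the secreted protease inhibitor nexin-1, was at 676, 730, 716, 635 and 563 TPM in controls, at 682, 780, 675 and 615 at day 1, and at 947, 844, 868 and 803 at day 5. Day 5 was above the other groups throughout, and the log2 fold change of 0.42 had an adjusted p of 0.0113 (SE 0.088) but was under the fold threshold. *Sfrp2*, which encodes a secreted modulator of Wnt signalling, was at 870, 675, 765, 742 and 405 TPM in controls and at 488, 704, 806 and 589 at day 5, with a log2 fold change of -0.04 (SE 0.21, adjusted p = 0.947). *Rgs4* and *Rgs5*, which curb signalling by G protein-coupled receptors in mural cells, had log2 fold changes of -0.18 (adjusted p = 0.32) and 0.09 (adjusted p = 0.71). *Gata3*, a transcription factor needed by mesangial cells, was at 200.2 to 361 TPM in controls and at 269, 279, 280 and 276 at day 5 (log2 fold change 0.02, SE 0.12, adjusted p = 0.948). *Tbx18*, a factor of mesenchymal precursors, lay between 0.166 and 1.06 TPM over the 13 libraries.

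The 4 day 5 libraries did not rank alike over the genes. Replicate 3 was the highest of the 4 in 16 of the 31 tested genes, among them *Acta2*, *Cnn1*, *Myh11*, *Lmod1*, *Smtn*, *Ren1*, *Thy1*, *Pdgfrb* and *Rgs5*. Replicate 1 was the highest in 9, namely *Tagln2*, *Tpm1*, *Myl9*, *Myl6*, *Csrp1*, *Pdlim7*, *Des*, *Vim* and *Serpine2*. *Tagln* was highest in replicate 2.

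The second comparison asks whether these genes differed already at day 1. It shares its control libraries with the day 5 comparison. By limma 0 of the 31 genes were called at day 1, where 0.0908% of all tested genes were called, and 6 of the 31 had an unadjusted p under 0.05. Without control replicate 5 the number called over all genes at day 1 went from 13 to 218, and 0 of the 31 were among them. Ranges lay apart in 2 of the 31 genes, *Vim* and *Myl6*, both above the controls. Of all 14322 tested genes, 130 had day 1 libraries all above the controls and 475 all below (4.22% in either direction). The log2 fold change was above 0 in 21 of 31 with a median of 0.09, and without control replicate 5 in 17 with a median of 0.01.

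*Vim* had a log2 fold change of 0.496 at day 1 (SE 0.086, adjusted p = 0.0471), just under the fold threshold. *Myl6* had a log2 fold change of 0.32 (SE 0.092, adjusted p = 0.233). *Tagln* had one of 0.44 (SE 0.18, adjusted p = 0.342) and *Acta2* one of 0.43 (SE 0.20, adjusted p = 0.398), and each was smaller without control replicate 5, at 0.31 and 0.26. *Tpm1*, *Tpm2* and *Myl9* had log2 fold changes of 0.26, 0.30 and 0.21, with adjusted p-values of 0.321, 0.342 and 0.412, and the fold changes without control replicate 5 were 0.21, 0.18 and 0.15 on the log2 scale. Tubular markers, which glomerular preparations can carry, were read beside these values. At day 1 by limma 0 of them were called, and 6 of 8 proximal tubule markers and 4 of 7 markers of the loop, distal tubule and collecting duct had an unadjusted p under 0.05. The summed TPM of the proximal tubule markers was 269 to 684 in controls, 465 to 710 at day 1 and 359 to 486 at day 5, and that of the more distal markers was 265 to 534, 512 to 932 and 358 to 491. Their part in the day 1 values was not tested.

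The third comparison, day 5 against day 1 of MN, tests the difference between the MN groups directly. As the day of each control is not given, it has no controls matched by day. *Tagln* was called, with a log2 fold change of 0.86 (SE 0.19, adjusted p = 0.027). It was 1 of 31 genes, where 1.41% of all tested genes were called higher and 1.81% in either direction. The call was lost on leaving out day 1 replicate 1, 2 or 3 (adjusted p = 0.071, 0.0683 and 0.0579) or day 5 replicate 2 or 3 (0.0805 and 0.0609), and the log2 fold change then lay between 0.70 and 0.88. Ranges of day 5 lay above those of day 1 in 8 of the 31 genes (*Tagln*, *Tagln2*, *Tpm1*, *Tpm2*, *Myl9*, *Flna*, *Csrp1* and *Serpine2*), against 6.12% of all genes. *Tpm1* (0.41, adjusted p = 0.0518), *Myl9* (0.41, adjusted p = 0.0665) and *Serpine2* (0.32, adjusted p = 0.0962) did not pass the test. *Vim* had a log2 fold change between the days of 0.19 (SE 0.091, 95% confidence interval -0.01 to 0.38, adjusted p = 0.342). *Acta2* had one of 0.12 (95% confidence interval -0.34 to 0.57, adjusted p = 0.858). Between the days all 8 proximal tubule markers and all 7 more distal markers were below 0 (median log2 fold changes -0.61 and -0.78). The part of tubular content in these values was not tested.

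**Figure D5:**
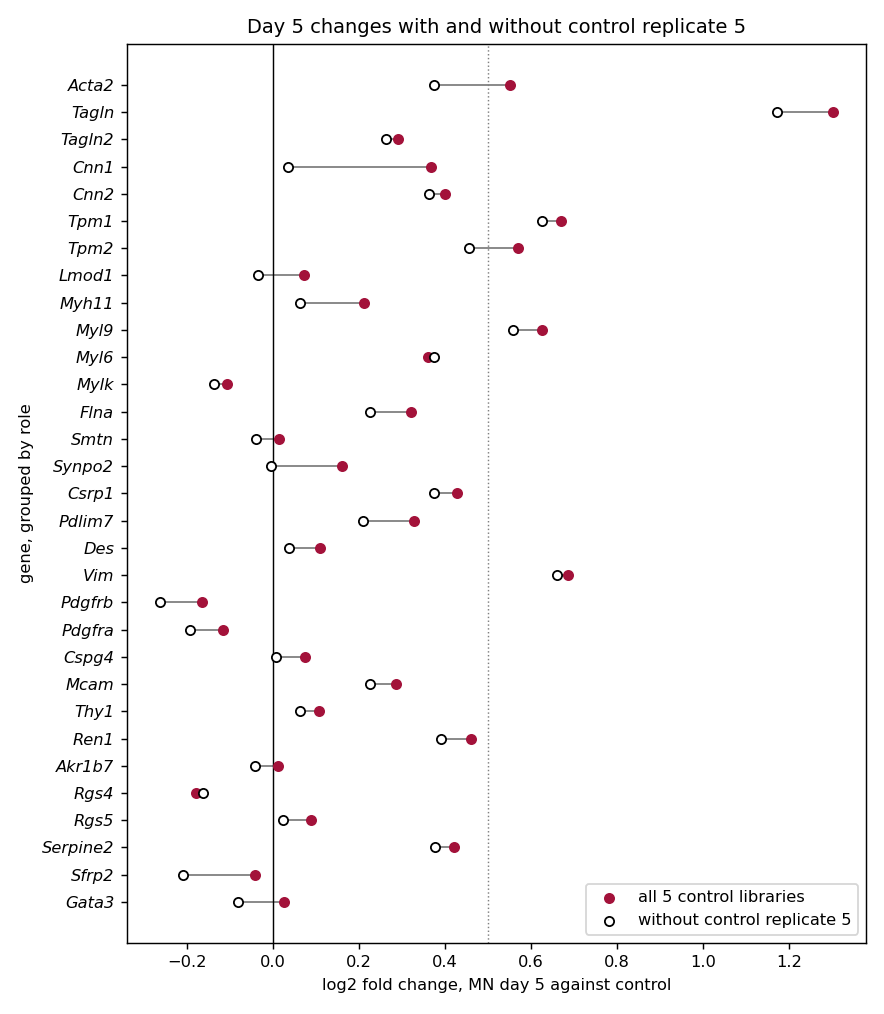
Log2 fold change at day 5 against control (x axis) for each tested gene (y axis), with all 5 control libraries (filled) and without control replicate 5 (open), and the fold threshold of 0.5 as a dotted line. Most open points lie left of the filled ones, *Cnn1* moves from 0.37 to 0.04, and *Tagln*, *Vim*, *Tpm1* and *Myl9* stay right of the line.

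Other genes of the same cells and pathways were read from lists that do not overlap with the 33 genes. Of 21 other mesangial and pericyte genes 20 were tested, and 0 were called at day 5 by limma (3 had an unadjusted p under 0.05), with a median log2 fold change of 0.05. The highest of them, *Tcf21* (0.33, adjusted p = 0.132), named after its values were seen, is also on the list of podocyte markers. Among the others *Itga8*, the integrin subunit that marks mesangial cells, was at 410 TPM ± 66.4 (SD, n = 5) in controls and 433 ± 36.6 (n = 4) at day 5, with a log2 fold change of 0.13 (SE 0.10, adjusted p = 0.559). Of the 4 PDGF ligands 0 were called (2 had an unadjusted p under 0.05). *Pdgfb*, the endothelial ligand of PDGFR-beta, was at 257 TPM ± 27.4 (n = 5) in controls and 279 ± 20.5 (n = 4) at day 5 (log2 fold change 0.16, adjusted p = 0.421). *Pdgfd*, another ligand of that receptor, named after its values were seen, had a log2 fold change of 0.42 with an adjusted p of 0.0145, under the fold threshold.

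Of 43 other actin, myosin and SRF target genes 38 were tested and 2 were called higher at day 5, with a median over the 38 of 0.19. *Zyx*, which encodes the focal adhesion protein zyxin, was at 94.0 TPM ± 9.71 (SD, n = 5) in controls, 100 ± 10.6 (n = 4) at day 1 and 130 ± 3.44 (n = 4) at day 5. Its log2 fold change of 0.51 (SE 0.078, adjusted p = 0.00143) lay just above the threshold and was 0.48 to 0.49 on leaving out control replicate 4 or 5 or day 5 replicate 1 or 2, and 0.47 without scaling between libraries. *Kcnmb1*, a potassium channel subunit of smooth muscle, was at 2.66 TPM ± 0.413 (n = 5) in controls and 4.33 ± 0.62 (n = 4) at day 5, with a log2 fold change of 0.65 (SE 0.14, adjusted p = 0.0159), and 0.56 (adjusted p = 0.0616) without day 5 replicate 1. *Srf*, the factor that binds the CArG box, was at 58.5 TPM ± 5.64 (n = 5) in controls and 55.7 ± 5.62 (n = 4) at day 5 (log2 fold change -0.03, adjusted p = 0.875). *Myocd*, its smooth muscle coactivator, was at 2.34 ± 0.761 and 1.50 ± 0.63 TPM (log2 fold change -0.47, SE 0.28, adjusted p = 0.38). At day 1 by limma 0 genes of these 3 lists were called (1 of the mesangial and pericyte genes and 2 of the actin, myosin and SRF target genes had an unadjusted p under 0.05).

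Markers of other cells and states were read beside these results, and their part in them was not tested. All 6 proliferation markers were called higher at day 5, with log2 fold changes of 2.98 for *Mki67*, 1.67 for *Top2a*, 2.92 for *Cdk1*, 2.68 for *Ccnb1*, 2.51 for *Ccna2* and 2.99 for *Birc5*, and with a summed TPM of 13.8 to 25.8 in controls, 10.4 to 23.3 at day 1 and 99.2 to 154 at day 5. The parietal epithelial marker *Cldn1* was called higher, with a log2 fold change of 1.08 (SE 0.19, adjusted p = 0.0036), while the other 5 of its list were not called. At day 1 the 6 parietal markers had a median of 0.52, 4 of them with an unadjusted p under 0.05 and 0 called by limma. Summed TPM overlapped between controls and day 5 for 9 leukocyte markers (26.7 to 46.1 and 28.3 to 51.3), for 7 interstitial fibroblast markers (542 to 724 and 666 to 792), for podocyte markers (6843 to 9234 and 7749 to 8007) and for endothelial markers (4825 to 6099 and 5726 to 6105). No gene of these 4 lists was called at day 5, but some lay apart in the single-gene values. The 5 fibroblast markers tested had a median log2 fold change of 0.71, with 3 at an unadjusted p under 0.05, 2 with day 5 all above control and 1 all below. The 6 leukocyte markers tested were all above 0 (median 0.31), with 2 at an unadjusted p under 0.05. The 8 endothelial markers were also all above 0 (median 0.20). Of the podocyte and the endothelial markers 3 each had an unadjusted p under 0.05 and 1 each an adjusted p under 0.05, namely *Synpo* (-0.46, adjusted p = 0.00197) and *Emcn* (0.29, adjusted p = 0.0127), both named after their values were seen and both under the fold threshold. Of these lists, 1 leukocyte and 2 fibroblast markers were under 1 TPM in every library. Between days 5 and 1 the tubular markers all had log2 fold changes below 0, and *Calb1* and *Aqp2* were called lower. All 6 proliferation markers were called higher (median log2 fold change 2.86).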

How the data were processed

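Glomerular RNA of 13 Balb/c mice was sequenced (5 control, 4 MN day 1, 4 MN day 5). Per the submitters' processing notes, reads were checked with FastQC 0.11.9, trimmed with Trimmomatic 0.39 and quantified with kallisto 0.46.2 against GRCm39, and the authors deposited TPM, 1 value per gene symbol and library. Read counts were not used here, so depth is unknown and no counting interval is given. A count test, which the study's methods use, does not apply to TPM.

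Each library was scaled by its median of ratios over the 15772 symbols above 0 in every library. Values of log2(scaled TPM + 0.5) were fitted with limma 3.58.1 in R 4.3.3 (1 fit of the 3 groups, mean-variance trend, Benjamini-Hochberg adjustment within each comparison) over the 14322 genes that reached 1 TPM in 4 or more libraries. Genes were called at an adjusted p under 0.05 and a log2 fold change beyond 0.5 in either direction. The procedure was tested on simulated data. The 33 genes and the lists were chosen with earlier results of these data known. All 33 genes are named, with the genes of the other lists that were called in a comparison and *Pdgfb*, *Itga8*, *Srf* and *Myocd*. No libraries held identical values (Pearson's r between libraries 0.9595 to 0.9778). Positions come from GENCODE M39. Promoters come from RefSeq, and similar transcripts were found with BLAST+ 2.17.0 (90% identity or more, covering 20% or more of the transcript). Python 3.11.15 with matplotlib 3.10.9 was used for plots. Alternatives were pseudocounts of 0.1 and 1, no scaling or quantile normalization, no or a stricter filter, no trend, only the 2 compared groups, the replicate number as a block, library weights, the adjusted p alone, and leaving out each library in turn.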

Additional observations from a re-analysis of the deposited data

Results flagged for a closer look

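Within each group, the highest and lowest library of each of the 33 genes was compared with the nearest other library by Dixon's criterion at the 95% level, 99 groups in all, of which chance alone flags about 1 in 20. Libraries of MN day 5 stood out for *Tagln2* (633 TPM in replicate 1, next 533), *Csrp1* (638 TPM in replicate 1, next 493), *Cnn1* (26.2 TPM in replicate 3, next 12.8) and *Tbx18* (0.503 TPM in replicate 4, next 0.281). Day 1 replicate 4 stood out for *Tagln* (208 TPM, next 172), *Cspg4* (61.5 TPM, next 52.1) and *Akr1b7* (42.5 TPM, next 21.9). Control replicate 5 stood out for *Tpm1* (294 TPM, next 350), and control replicate 4 for *Actg2* (0.531 TPM, with the other 4 controls listed at 0). By the direct test the level of *Tagln* differed between the MN groups, with a log2 fold change of 0.86 from day 1 to day 5 (limma, adjusted p = 0.027). That call was lost on leaving out any of several single libraries, as given above, and with no filter on low TPM.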

How the results depend on the processing

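At day 5, 5 genes were called, and 4 with the replicate block, with library weights or without control replicate 5 (range 4 to 5 on leaving out each library), *Tpm2* being lost each time with a log2 fold change of 0.46 to 0.48. With the adjusted p alone the counts were 8 at day 5 and 1 at day 1 (*Vim*), by construction. Day 1 had 0 calls under every other alternative, and *Tagln* between the days went from 1 call to 0 with no filter on low TPM (23350 genes tested) and ranged from 0 to 1 on leaving out each library. The other mesangial, contractile and PDGF genes had 2 calls at day 5, 1 with no further scaling or with quantile normalization, 0 with the replicate block, 11 with the adjusted p alone, and 0 to 4 on leaving out each library. Between the days they had 0 calls, and 3 with the adjusted p alone. Over all tested genes, the calls at day 1 went from 13 to 149 with the replicate block, 2 with only the compared groups, 6 with no filter and 7 without the trend, and lay between 3 and 218 on leaving out each library. Between the days 259 became 414 with only the compared groups and 153 with the stricter filter, and at day 5 460 became 876 with the adjusted p alone. Where not stated by construction, the cause was not tested. The replicate numbers did not pair the libraries (correlations of same-numbered deviations -0.0563 to 0.0913), so the block gives no paired result. Number 5 occurs only among the controls, so by construction the block gives control replicate 5 its own term and sets it aside. With the block, as without that library, the day 5 median of the 31 genes was 0.06 and 21 were above 0. These 2 settings are therefore not separate checks. With no further scaling 23 of the 31 genes were above 0 at day 5. With depth unknown and 4 or 5 libraries per group, precision rests on the spread between libraries alone.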

Other observations

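Levels of *Tagln* were also set against those of other smooth muscle genes within each library, a comparison chosen after the values were seen and given with no test. The ratio of *Tagln* to *Acta2* TPM was 0.693 to 0.845 in the 5 controls and 0.681 to 0.817 at day 1, and 0.952 to 1.87 at day 5. The ratio of *Tagln* to *Myh11* was 2.05 to 2.34 in controls, 2.30 to 2.51 at day 1 and 3.27 to 7.46 at day 5. All 4 day 5 libraries were above the other 9 libraries in both ratios. In control replicate 5, where the 3 genes were each at their lowest, the ratios were 0.845 and 2.33.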
